A study of Mus musculus with 24 samples.

Results

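The 9 genes described here are tied to Alzheimer disease and other neurodegeneration and were followed in *Eya3*-/- mice clone by clone and mouse by mouse, in brain, heart and skeletal muscle. The members are all clones on the array that carry the symbols *Apoe*, *Lrp1*, *Aplp1*, *Cdk5r1*, *Arpp19*, *Xiap* (older symbol *Birc4*), *Mt3*, *Ttr* and *Atxn10* (older symbol *Sca10*), which gave 16 clones out of 20794. *Lrp1* and *Mt3* had 3 clones each, *Aplp1*, *Ttr* and *Atxn10* had 2 each, and the other genes had 1. The samples were brain, heart and muscle of the same 4 male mutants aged 13 weeks, homozygous for 1 gene trap line in which a promoterless *lacZ* vector (pT1βgeo) sits in an intron of *Eya3*. The line came from Sv129S2 embryonic stem cells and was crossed to C57BL/6. The control in the other channel of every array was a pool of RNA from wild-type males of the same organ, and by the labels the same wild-type animals served the pools of all organs. Each mouse, named by a letter from W to Z that stands in brackets after its value, was measured on 2 arrays per organ with the dyes exchanged, which gave 8 arrays per organ and 24 in all. *Arpp19*, *Xiap*, *Mt3*, *Ttr* and *Atxn10* were named by the study as down-regulated in brain, from these same arrays. All 9 genes were chosen with earlier results of these data known. The values of the members are therefore not independent evidence of a direction.

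The values are log2 ratios, most likely of mutant over wild-type pool, so that a value below 0 means less signal in the mutant and each unit is a doubling. Neither the direction nor the base of the logarithm is stated, and both were read from the values. The direction was not tested separately, and every lower and higher given here rests on it. An array lacked values for 4.75% to 24.5% of its clones. Its median was -0.26 at the lowest and 0.14 at the highest, and the number of values larger than 10 in size was 31 to 223. Spearman's correlation across clones, which are not independent replicates, lay between -0.14 and 0.06 for the dye-swapped arrays of a mouse, which limits the precision of every value here. The single clone of *Eya3* itself, clone 7343, gave a value on 1 array of each mouse in brain (-0.87, -0.55, -3.32 and 1.24), and in heart mice W and Y had both arrays (means 0.02 and -0.38) and mice X and Z 1 array (1.42 and 0.10). In muscle it had 1 array value in mouse W (2.79), mouse X (0.32) and mouse Y (-2.39). It could therefore not check the genotype, and its place relative to the insertion is not known here. A ratio holds no level, so the tissue labels could not be checked against defining markers. In a whole organ, fewer cells of a type and less RNA per cell cannot be told apart.

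Alzheimer disease is marked by plaques of amyloid-beta, a peptide cut from the amyloid precursor protein, and by tangles of phosphorylated tau. Apolipoprotein E, made in the brain mainly by astrocytes, carries lipids to receptors of the low density lipoprotein receptor family and binds amyloid-beta. Eya3 is a phosphatase and a transcriptional partner of sine oculis homeobox proteins, which bind DNA at sites that include the MEF3 motif. The RefSeq table of promoters (GRCm38.p6) had an entry for 7 of the 9 genes. The 250 bases before the annotated start are shown for 4 of them, because each of these genes had a clone on 1 side of 0 in all 4 brains and a single or outermost start. Capitals mark 5 short motifs searched on both strands, the GC box (GGGCGG), the CCAAT box (CCAAT), the TATA box (TATAAA), the core of the metal response element (TGCACNC or TGCGCNC) and the core of the MEF3 site (TCAGGTT).
Arpp19 (chr9:75037364-75037613, plus strand): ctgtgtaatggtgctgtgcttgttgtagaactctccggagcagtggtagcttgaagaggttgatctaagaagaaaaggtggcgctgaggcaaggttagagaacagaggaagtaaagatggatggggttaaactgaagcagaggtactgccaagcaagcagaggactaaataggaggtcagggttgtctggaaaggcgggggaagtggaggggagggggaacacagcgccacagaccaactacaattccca
Mt3 (chr8:94152357-94152606, plus strand): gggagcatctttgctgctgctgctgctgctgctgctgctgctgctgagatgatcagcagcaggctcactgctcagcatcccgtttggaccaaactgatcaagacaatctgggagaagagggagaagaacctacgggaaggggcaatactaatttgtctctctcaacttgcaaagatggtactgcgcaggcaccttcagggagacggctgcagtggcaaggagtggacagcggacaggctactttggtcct
Atxn10 (chr15:85336005-85336254, plus strand): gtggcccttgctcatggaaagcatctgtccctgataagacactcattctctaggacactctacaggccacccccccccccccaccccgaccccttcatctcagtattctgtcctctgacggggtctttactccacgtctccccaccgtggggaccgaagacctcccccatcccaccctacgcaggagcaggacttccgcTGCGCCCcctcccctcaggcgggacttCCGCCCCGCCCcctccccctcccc
Aplp1 (chr7:30445583-30445832, minus strand): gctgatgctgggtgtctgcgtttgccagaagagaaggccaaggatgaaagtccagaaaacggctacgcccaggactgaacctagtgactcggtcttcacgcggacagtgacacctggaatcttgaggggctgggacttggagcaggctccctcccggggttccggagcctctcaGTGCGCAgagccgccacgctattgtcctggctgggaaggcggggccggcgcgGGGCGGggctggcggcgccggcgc
The windows of *Arpp19* and *Mt3*, with 51.2% and 54.8% G and C, held none of these motifs. That of *Atxn10*, with 65.2%, held 2 GC boxes that share a base and 1 metal response element core. That of *Aplp1*, with 66% G and C, held 1 GC box and 1 metal response element core, which do not overlap. Among 32851 promoter windows of this length, 32.7% held a GC box, 33.8% a CCAAT box, 12.4% a TATA box, 21.4% a metal response element core and 3.49% a MEF3 core. A match is a description of the letters and not a binding site.

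In brain, most member clones lay below 0, but none passed the test. Of 13 clones with a value of at least 3 mice on both arrays, 11 had a mean below 0 (52.2% of all clones) and 2 above 0 (47.8%). The median was -0.42, beside -0.02 over all 15846 clones tested. Of the 12 clones with values of all 4 mice, 7 lay below 0 in every mouse (15.7% of all clones did) and 1 lay above 0 in every mouse (10.1% of all clones). All 9 genes were chosen with earlier results of these data known, and 5 of them had been picked by the study from these arrays. These counts therefore describe the clones and nothing is read from them. limma, a linear model with a spread shared over clones, called 0 of the 13 at an adjusted p under 0.10, as it called 0% of all clones. At an unadjusted p under 0.05 there were 6 lower clones (4.04% of all clones), those of *Cdk5r1*, *Arpp19*, *Xiap*, *Mt3* (17217), *Ttr* (51) and *Atxn10* (19986), and 1 higher clone (5.3% of all clones), that of *Aplp1* (7394). The adjusted p of the 13 clones lay between 0.518 and 0.724. Significance analysis of microarrays (SAM), the kind of test named in the methods, run here at 10% false positives, also called 0 member clones. Over all clones it called 0 on mouse means (0%) and 26 on the 8 arrays (0.164%). The study's own SAM used another cutoff and more permutations. From it the study named *Arpp19*, *Xiap*, *Mt3*, *Ttr* and *Atxn10* as down-regulated in brain, which the tests run here did not call. Since the pool is a single control sample, anything particular to it would appear in every mouse alike.

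**Figure D1:**
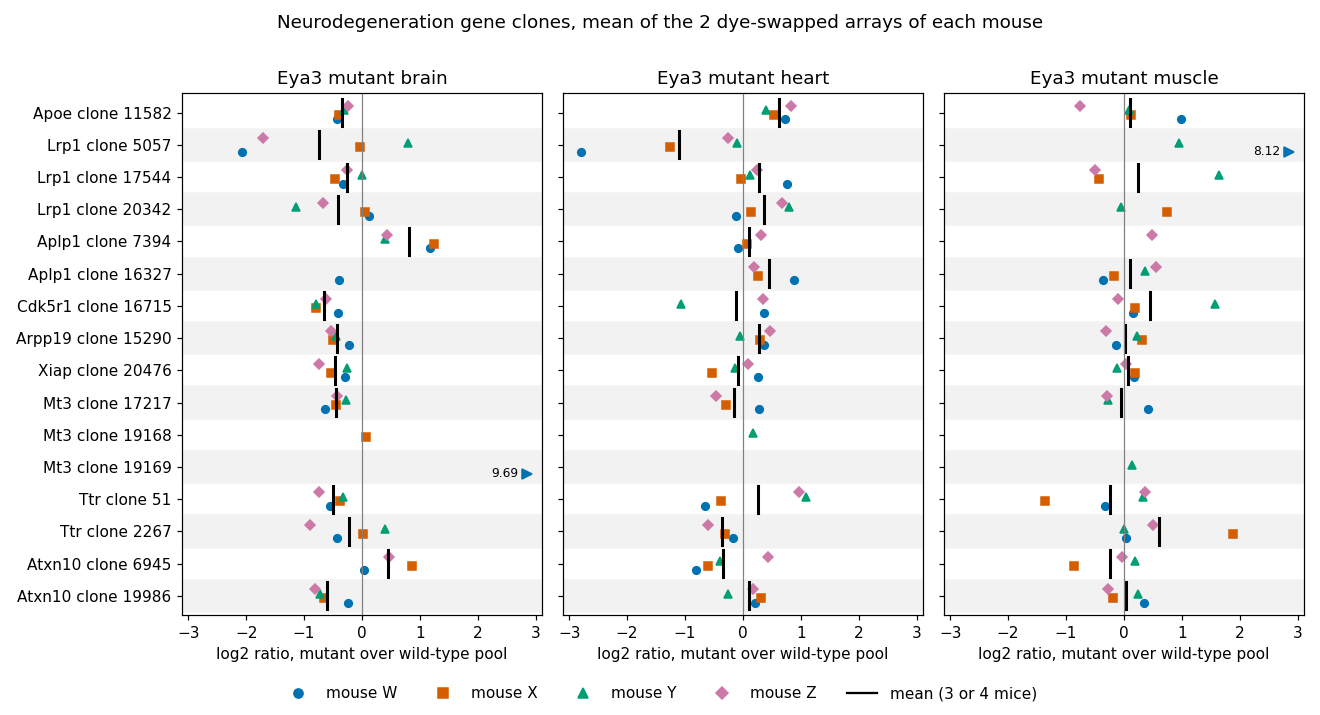
Log2 ratio (mutant over wild-type pool, horizontal axis) of each of the 16 clones in brain, heart and muscle, with 1 symbol per mouse for the mean of its 2 dye-swapped arrays and a black bar for the mean where at least 3 mice had a value. In brain 11 of 13 bars lie left of 0, in heart 6 of 14 and in muscle 3 of 11; arrowheads mark the means of 9.69 (brain) and 8.12 (muscle), which lie beyond the axis.

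*Apoe*, the lipid carrier whose human variant is the best known genetic risk factor of late-onset Alzheimer disease, had a brain mean of -0.34 ± 0.09 (SD, n = 4 mice), which is 1.27-fold lower than the pool. The mice were close together, with -0.42 (W), -0.40 (X), -0.30 (Y) and -0.24 (Z). Mutant RNA in Cy5 gave -0.78, -0.73, -0.23 and -0.31, and mutant RNA in Cy3 gave -0.07, -0.08, -0.38 and -0.17. All 8 arrays were below 0, as they were for *Arpp19* and *Mt3* clone 17217, and 2.28% of all clones with a value of all 4 mice had this. The adjusted p from limma was 0.518 (unadjusted p = 0.054, 95% interval -0.70 to 0.01).

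*Lrp1*, the large endocytic receptor that takes up apolipoprotein E and clears amyloid-beta, was on the array as 3 clones that did not run together. Clone 5057 had -2.06 (W), -0.03 (X), 0.79 (Y) and -1.70 (Z), so that mice W and Z lay far below 0 and mice X and Y did not. Its mean was -0.75 ± 1.36 (SD, n = 4 mice). Clone 17544 had -0.32 (W), -0.47 (X), 0.00 (Y) and -0.26 (Z), with a mean of -0.26 ± 0.20 (SD, n = 4 mice). Clone 20342 had 0.13 (W), 0.06 (X), -1.13 (Y) and -0.68 (Z), with a mean of -0.41 ± 0.61 (SD, n = 4 mice). The spread between mice exceeded the mean for clones 5057 and 20342. For clone 17544 the orientations of the dyes had opposite signs, with a mean of 0.34 on arrays with the mutant in Cy5 and -0.86 with the mutant in Cy3.

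*Aplp1*, a neuronal paralogue of the amyloid precursor protein, was 1 of the 2 genes with a tested clone above 0 in brain, the other being *Atxn10*. Clone 7394 lay above 0 in all 4 brains, with 1.18 (W), 1.25 (X), 0.40 (Y) and 0.43 (Z) and a mean of 0.82 ± 0.46 (SD, n = 4 mice), 1.76-fold higher than the pool. Mice W and X were the high ones, and the single arrays ran from -0.38 to 2.88. limma gave an adjusted p of 0.518. The mean was 1.41 with the mutant in Cy5 and 0.23 with the mutant in Cy3. The other *Aplp1* clone, 16327, was measured in mouse W alone in brain, where its mean was -0.41 against 1.18 for clone 7394 in the same mouse.

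*Cdk5r1* encodes p35, the neuronal activator of the tau kinase Cdk5. Its clone had -0.42 (W), -0.79 (X), -0.80 (Y) and -0.62 (Z), and a mean of -0.66 ± 0.18 (SD, n = 4 mice) or 1.58-fold lower. All 4 arrays with the mutant in Cy5 lay between -1.39 and -0.86, whereas those with the mutant in Cy3 were 0.15, -0.53, -0.74 and 0.15, with mice W and Z slightly above 0. This clone had the lowest unadjusted p of the members in brain, 0.007 in limma, with an adjusted p of 0.518.

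*Arpp19*, a phosphoprotein that inhibits protein phosphatase 2A when phosphorylated, had -0.23 (W), -0.49 (X), -0.44 (Y) and -0.53 (Z). Its mean was -0.42 ± 0.13 (SD, n = 4 mice), 1.34-fold lower. The orientations of the dyes gave nearly the same mean, -0.39 with the mutant in Cy5 and -0.46 with the mutant in Cy3. *Mt3*, a metallothionein that binds zinc and copper and is best known from brain, was below 0 on clone 17217 in every mouse, with -0.63 (W), -0.45 (X), -0.28 (Y) and -0.43 (Z) and a mean of -0.45 ± 0.14 (SD, n = 4 mice). Its means by orientation were -0.47 with the mutant in Cy5 and -0.43 with the mutant in Cy3. The adjusted p from limma was 0.518 for both. The other *Mt3* clones were hardly measured. Clone 19168 had both brain arrays in mouse X alone (1.37 and -1.24). Clone 19169 had both in mouse W alone, with 16.59 and 2.79, so that its mean of 9.69 rests on 1 array value beyond 10. Neither clone was tested, and a value averaged over the *Mt3* clones of mouse W would be set by that array.

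*Xiap*, an inhibitor of caspases, had -0.29 (W), -0.54 (X), -0.26 (Y) and -0.73 (Z), with a mean of -0.46 ± 0.22 (SD, n = 4 mice). The 4 mice agreed in sign, but the dye orientations did not. With the mutant in Cy5 the arrays had -0.60, -0.97, -0.96 and -1.29, and with the mutant in Cy3 they had 0.02, -0.11, 0.43 and -0.18, a mean of 0.04. *Ttr* encodes transthyretin, a carrier of thyroid hormone and retinol that is made in the choroid plexus and liver and binds amyloid-beta. Clone 51 had -0.55 (W), -0.37 (X), -0.32 (Y) and -0.73 (Z), with a mean of -0.49 ± 0.19 (SD, n = 4 mice). Here the low values came from the arrays with the mutant in Cy3 (-1.02, -0.84, -0.70 and -1.06), while those with the mutant in Cy5 averaged -0.08. *Ttr* clone 2267 had -0.43 (W), 0.02 (X), 0.40 (Y) and -0.90 (Z), so that 2 mice lay on each side of 0 and its mean of -0.23 ± 0.56 (SD, n = 4 mice) was smaller than its spread.

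*Atxn10* encodes ataxin 10, and an expanded repeat in an intron of the human gene causes spinocerebellar ataxia type 10. Its clones had opposite signs in brain. Clone 19986 had -0.24 (W), -0.66 (X), -0.73 (Y) and -0.80 (Z), with a mean of -0.61 ± 0.25 (SD, n = 4 mice) or 1.52-fold lower. Clone 6945 had 0.04 (W), 0.86 (X) and 0.47 (Z), with a mean of 0.46 ± 0.41 (SD, n = 3 mice), and in mouse Y its only array value was -3.38. Clone 6945 lay above clone 19986 in each of the 3 mice that had both, although they carry the same symbol. Clone 19986 averaged -1.06 with the mutant in Cy5 and -0.16 with the mutant in Cy3. Clone 6945 averaged 1.33 over 3 arrays with the mutant in Cy5 and -1.16 over 4 arrays with the mutant in Cy3. Only the latter include mouse Y, so these averages of clone 6945 are not over the same mice. Among the tested member clones, the orientations had means of the same sign for 10 of 13 in brain, for 6 of 14 in heart and for 2 of 11 in muscle. Over all clones tested the share was 47% for brain, 40.9% for heart and 41% for muscle.

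**Figure D2:**
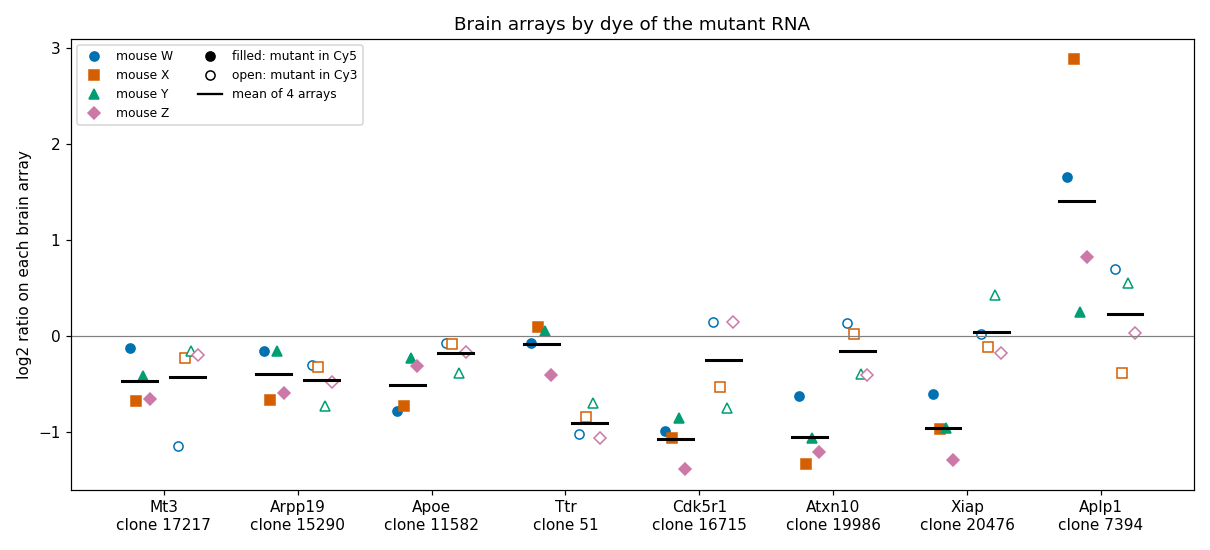
Log2 ratio on each of the 8 brain arrays (vertical axis) for the 8 clones that had 1 sign in all 4 mice, with filled symbols for the mutant in Cy5, open symbols for the mutant in Cy3 and black bars for the mean of 4 arrays, ordered by the gap between the bars. The bars of an orientation pair lie close for Arpp19 (-0.39 and -0.46) and Mt3 (-0.47 and -0.43) and apart for Xiap (-0.96 and 0.04), Ttr (-0.08 and -0.91) and Aplp1 (1.41 and 0.23).

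In heart, the member clones lay on both sides of 0 and none passed the test. Of 14 clones tested, 6 had a mean below 0 (48.5% of all clones) and 8 above 0 (51.5%), with a median of 0.11 beside 0.01 over all 16241 clones tested. limma called 0 of the 14 and 0% of all clones, and the members had adjusted p from 0.802 to 0.943. At an unadjusted p under 0.05 there were 0 lower clones (2.82% of all clones) and 1 higher clone (2.4% of all clones), and SAM called 0 members on mouse means (1 of all clones, 0.00616%) and on the 8 arrays (4 of all clones, 0.0246%). The higher clone was *Apoe*. It had 0.73 (W), 0.53 (X), 0.40 (Y) and 0.83 (Z), with a mean of 0.62 ± 0.19 (SD, n = 4 mice) or 1.54-fold higher than the pool. It lay above 0 in all 4 mice, as 9.59% of all clones did, and on all 8 heart arrays, from 0.27 to 0.98, as 0.566% did. The adjusted p from limma was 0.802 (unadjusted p = 0.0108).

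Among the other members, *Lrp1* clone 5057 lay below 0 in all 4 hearts, as 7.55% of all clones did, but unevenly, with -2.79 (W), -1.27 (X), -0.11 (Y) and -0.26 (Z) and a mean of -1.11 ± 1.23 (SD, n = 4 mice). The clones 17544 and 20342 of the same gene had means of 0.27 ± 0.34 (SD, n = 4 mice) and 0.37 ± 0.43 (SD, n = 4 mice), above 0. *Arpp19* had 0.37 (W), 0.30 (X), -0.04 (Y) and 0.46 (Z), above 0 in 3 of 4 mice, with a mean of 0.27 ± 0.22 (SD, n = 4 mice). *Atxn10* clone 19986 likewise lay above 0 in 3 of 4 mice (mean 0.11 ± 0.25, n = 4), and clone 6945 below 0 in 3 of 4 (mean -0.34 ± 0.54, n = 4). *Ttr* clone 51 split the mice, with -0.66 (W), -0.38 (X), 1.09 (Y) and 0.97 (Z), while clone 2267 lay below 0 in the 3 mice measured (-0.61 to -0.17). *Xiap* had -0.08 ± 0.34 (SD, n = 4 mice), *Mt3* clone 17217 -0.15 ± 0.39 (SD, n = 3 mice) and *Cdk5r1* -0.12 ± 0.82 (SD, n = 3 mice), each with mice on both sides of 0. *Aplp1* clone 7394 had 0.10 ± 0.20 (SD, n = 3 mice) and clone 16327 0.45 ± 0.38 (SD, n = 3 mice). *Mt3* clones 19168 and 19169 were not tested, having both arrays in 1 mouse and in 0 mice.

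In muscle, 3 of the 11 clones tested had a mean below 0 (48% of all clones) and 8 above 0 (52%), with a median of 0.07 beside 0.01 over all 15210 clones tested. limma called 0 of them and 0% of all clones, and the members had adjusted p from 0.954 to 0.997. At an unadjusted p under 0.05 there were 0 lower members (1.28% of all clones) and 0 higher members (2.15% of all clones), and SAM called 0 members and 0 of all clones on mouse means and on arrays (0%). *Apoe* spread widely there, with 0.99 (W), 0.12 (X), 0.09 (Y) and -0.76 (Z) and a mean of 0.11 ± 0.71 (SD, n = 4 mice). Beside it, the haemoglobin chain *Hba-a1* (mean of 6 clones) had 1.24 (W), -0.18 (X), 0.88 (Y) and -1.63 (Z) in muscle. The 3 measured red cell genes, of which it is 1, had list medians of 1.24 (W), -0.18 (X), 0.21 (Y) and -1.16 (Z), and their part in the *Apoe* values was not tested. *Cdk5r1* had 0.15 (W), 0.20 (X), 1.58 (Y) and -0.10 (Z), so that mouse Y was high and the others near 0. No member lay below 0 in all 4 muscles, where 4.92% of all clones did. *Ttr* clone 2267 lay above 0 in all 4, as 6.93% of all clones did, with 0.03 (W), 1.88 (X), 0.01 (Y) and 0.50 (Z). Its mean was -0.39 with the mutant in Cy5 and 1.60 with the mutant in Cy3. *Ttr* clone 51 had the opposite sign (mean -0.25 ± 0.81, n = 4).

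*Arpp19* (0.02 ± 0.29, n = 4), *Xiap* (0.07 ± 0.14, n = 4), *Mt3* clone 17217 (-0.05 ± 0.40, n = 3) and *Atxn10* clone 19986 (0.04 ± 0.31, n = 4) lay close to 0 in muscle, with mice on both sides. *Lrp1* clone 17544 had -0.43 (X), 1.64 (Y) and -0.50 (Z), *Aplp1* clone 16327 ranged from -0.37 to 0.55 and *Atxn10* clone 6945 from -0.86 to 0.19. The other 5 clones had too few values to be tested in muscle. One of these was *Lrp1* clone 5057, whose mean of 8.12 in mouse W came from array values of 16.45 and -0.20. *Lrp1* clone 20342 had both arrays in 2 mice (-0.05 and 0.74), *Aplp1* clone 7394 in 1 mouse (0.49), and *Mt3* clones 19169 and 19168 in 1 mouse (0.14) and in 0 mice.

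The question whether heart and muscle ran the same way as brain was put clone by clone. The organs came from the same mutants and the pools from the same wild-type animals, so the organs are not independent. Of the 13 clones tested in brain and heart, 6 had means on the same side of 0 and 7 on opposite sides (44.4% of all clones were on the same side). For brain and muscle, 2 of 10 were on the same side (49.5% of all clones). Only *Mt3* clone 17217, of the 10 clones tested in all 3 organs, had 1 sign in all of them (21.3% of all clones), with a brain mean of -0.45, a heart mean of -0.15 and a muscle mean of -0.05. Of the 7 clones below 0 in all 4 brains, 4 had a heart mean above 0 (*Apoe*, *Arpp19*, *Ttr* clone 51 and *Atxn10* clone 19986) and 3 below 0. Over all clones below 0 in all 4 brains, 65.6% had a heart mean above 0 and 52.5% a muscle mean above 0. In muscle 5 of the 7 had a mean above 0.

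limma called no difference between organs, 0 of 13 clones for brain minus heart (0% of all 13948 clones) and 0 of 10 for brain minus muscle (0% of all 12762 clones). At an unadjusted p under 0.05, brain was lower than heart for 3 clones (6.02% of all clones), those of *Apoe*, *Arpp19* and *Atxn10* (19986), and higher for that of *Aplp1* (7394) alone (5.31%). Brain was lower than muscle for 3 clones (3.24%), those of *Cdk5r1*, *Xiap* and *Atxn10* (19986), and higher for 0 (3.29%). SAM was not run on differences. For *Apoe* the difference brain minus heart was -0.97 (95% interval -1.39 to -0.54), brain lay below heart in 4 of 4 mice, and the highest brain value (-0.24) was below the lowest heart value (0.40). Such a split at 0 in all 4 mice was found for 3.19% of all clones with 4 mice in both organs. The adjusted p was 0.394. *Arpp19* also did not overlap, with -0.53 to -0.23 in brain against -0.04 to 0.46 in heart and a difference of -0.70 (95% interval -1.15 to -0.25). Of all clones with 4 mice in both organs, 7.8% had every brain value below every heart value. *Aplp1* clone 7394 had a higher mean in brain than in heart, with a difference of 0.71 (95% interval 0.00 to 1.42) over 4 brains and 3 hearts. The heart of mouse Y is left out, since its only array value was -3.14. *Atxn10* clone 19986 differed by -0.72 (95% interval -1.22 to -0.21), with brain lower in 4 of 4 mice and overlapping values.

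Against muscle, *Cdk5r1* had the largest difference among the tested clones, -1.11 (95% interval -1.98 to -0.25), and its brain values lay below every muscle value (-0.80 to -0.42 in brain against -0.10 to 1.58 in muscle). *Xiap* was the other clone without overlap, with a difference of -0.53 (95% interval -1.02 to -0.04), and 4.69% of all clones with 4 mice in both organs had brain below muscle in this way. The adjusted p from limma was 0.701 for both. *Apoe*, with its widely spread muscle values, differed by -0.46 (95% interval -1.27 to 0.36). The intervals of most other clones included 0, which shows neither a difference nor its absence.

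**Figure D3:**
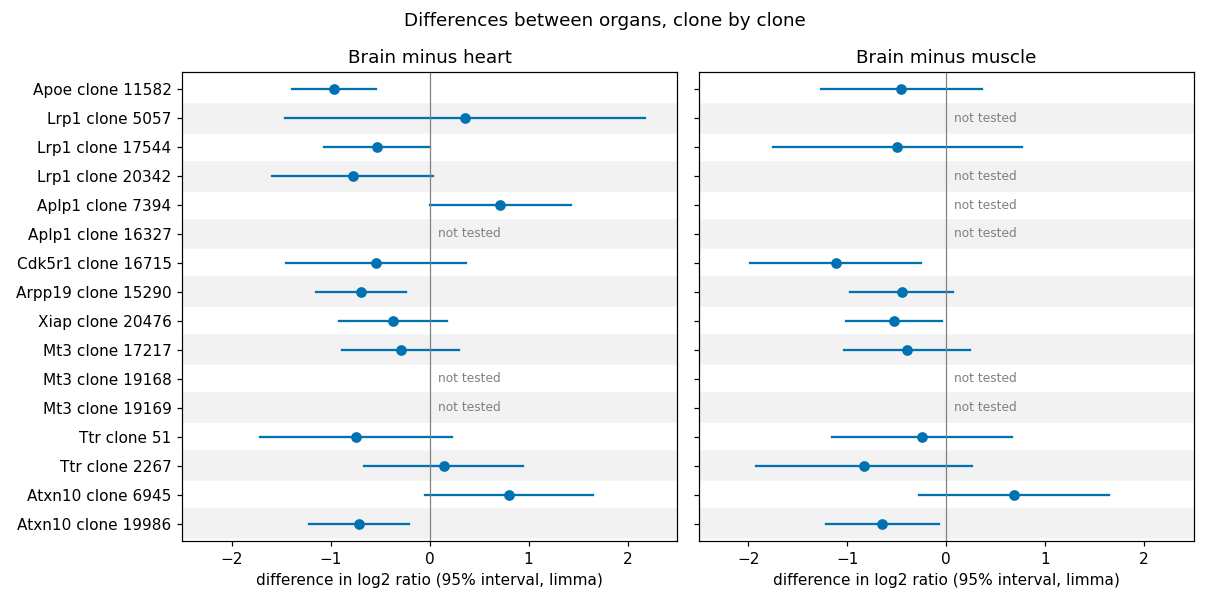
Difference in mean log2 ratio between brain and heart (left) and between brain and muscle (right) for each clone, with 95% intervals from limma on mouse means. For heart the interval of Apoe, -1.39 to -0.54, lies farthest from 0, and for muscle those of Cdk5r1, Xiap and Atxn10 clone 19986 leave out 0; 0 clones passed at an adjusted p under 0.10.

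Other clones with a like pattern were found by the root mean square distance over the 12 mouse means (4 mice in 3 organs). Median distances are over 5999 other clones with all values, with or without a symbol. The nearest clones were picked only from those with the symbol of another gene. Closest to *Arpp19* were *Atp5a1*, a subunit of the mitochondrial ATP synthase, at a distance of 0.13, and *Vdac3*, a channel of the outer mitochondrial membrane, at 0.15, where the median clone lay at 0.56. Closest to *Xiap* were *Tubb2a*, a tubulin, at 0.18 and *Calm2*, a calmodulin, at 0.21 (median 0.56). *Atxn10* clone 19986 lay nearest to *Map2k6* (0.16) and *Ubl5* (0.17), with a median of 0.61. *Apoe* had no such clone as near. *2210016L21Rik* stood at 0.26 and *Abraxas2* at 0.30, with a median of 0.72. For *Ttr* clone 51 the nearest were *Dbndd2* (0.40) and *Smap1* (0.41), with a median of 0.81.

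The pathways around the members were described from 8 lists of related genes, which were chosen with earlier results of these data known. In brain, 61 of the 100 measured genes lay below 0 and 39 above 0 (52.2% of all clones were below 0), with a median of -0.09, and limma called 0 of their 151 clones. At an unadjusted p under 0.05 there were 7 lower and 8 higher clones (4.04% and 5.3% of all clones were lower and higher). In heart 41 of 97 genes lay below 0 (median 0.06), with 0 of 152 clones called and 5 lower and 0 higher clones at an unadjusted p under 0.05 (2.82% and 2.4% of all clones), and in muscle 49 of 96 (median -0.00023), with 0 of 147 clones called and 0 lower and 6 higher clones at an unadjusted p under 0.05 (1.28% and 2.15% of all clones). SAM was not counted over these lists. Genes named from them are given as the mean ± SD over 4 mice, or by mouse. They were picked for 1 sign in all 4 brains and a large mean, so that shared sign is not a finding about them. Among the 78 genes with values of all 4 brains, 24 lay below 0 in every mouse and 3 above 0, where 15.7% of all clones lay below and 10.1% above. The gene counts average the clones of a symbol, whereas the shares are of single clones. The units differ, so no excess is read from them.

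Of 23 genes of amyloid precursor processing and clearance, 15 lay below 0 in brain (median -0.10). *App*, the amyloid precursor protein itself, had -0.48 (W), -0.30 (X), -0.22 (Y) and -0.39 (Z), with a mean of -0.35 ± 0.11 (SD, n = 4 mice). Its paralogue *Aplp2* had -0.22 ± 0.14 and the adaptors that bind the tail of the precursor, *Apba1* and *Apbb1*, had -0.31 ± 0.08 and -0.33 ± 0.18. These 4 genes, picked for 1 sign in all 4 brains, lay below 0, the side opposite to *Aplp1* clone 7394. Among the 18 genes of this list with values of 4 mice, 5 lay below 0 in every brain and 0 above. In heart the mean of *App* was -0.23 ± 0.24 and in muscle -0.21 ± 0.72.

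Of 13 genes of lipid carriers and low density lipoprotein receptors, 9 lay below 0 in brain, with a median of -0.33. *Apod*, a lipid carrier of glia, had -0.45 ± 0.17, *Abca1*, which loads lipid onto apolipoprotein E, had -0.39 ± 0.22, and *Lrpap1*, the chaperone of Lrp1, had -0.37 ± 0.31. Among the 9 genes of this list with values of 4 mice, 5 lay below 0 in every brain and 1 above. The 1 above was *Scarb1*, a receptor of high density lipoprotein, with 0.66 ± 0.28. In heart 8 of 12 genes of this list lay above 0 (51.5% of all clones did), with a median of 0.08. *Abca1* had 0.25 ± 0.23 there, above 0 in 3 of 4 mice, with an adjusted p of 0.802 from limma. *Apod* (0.13 ± 0.41), *Lrpap1* (0.03 ± 0.18) and *Scarb1* (0.24 ± 0.65) also had hearts on both sides of 0.

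Tau and its kinases were divided, with 5 of 10 genes below 0 (median -0.02). *Mark3*, a kinase of microtubule-associated proteins, had -0.30 (W), -0.73 (X), -0.73 (Y) and -1.23 (Z), whereas *Mark2* had 0.21 ± 0.20. Among the 10 genes of this list with values of 4 mice, 1 lay below 0 in every brain and 1 above. The inhibitor of apoptosis proteins, their antagonists and caspases were divided as well, with 6 of 12 below 0 (median 0.01). *Birc6*, a relative of Xiap, had -0.65 ± 0.30, and *Apaf1*, which activates caspase 9, had -0.40 ± 0.18. In this list 2 of the 7 genes with values of 4 mice lay below 0 in every brain and 0 above. Of 8 genes of metallothioneins and zinc transport 5 lay below 0 (median -0.15). *Mt1*, the ubiquitous relative of *Mt3*, had -0.25 (W), -0.34 (X), -0.49 (Y) and -0.63 (Z), and *Mtf1*, the factor that binds metal response elements, had -0.42 ± 0.38. The zinc exporter *Slc30a1* lay above 0 at 0.16 ± 0.04. In this list 3 of the 7 genes with values of 4 mice lay below 0 in every brain and 1 above.

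Of 7 genes of the Arpp family and protein phosphatase 2A, 4 lay below 0 (median -0.08). *Ensa*, the closest relative of *Arpp19*, had -0.57 ± 0.54, and the catalytic subunits *Ppp2ca* and *Ppp2cb* had -0.36 ± 0.30 and -0.53 ± 0.39. In this list 3 of the 7 genes with values of 4 mice lay below 0 in every brain and 0 above. Of 7 genes of thyroid hormone and retinol transport, 4 lay below 0 (median -0.07), among them *Slco1c1*, a thyroxine transporter (-0.34 ± 0.12), and *Crym*, which binds thyroid hormone in the cell (-0.29 ± 0.11). The list of other neurodegeneration genes had 13 of 20 below 0 (median -0.06), with *Pink1*, a kinase of mitochondrial quality control, at -0.37 ± 0.21, *Uchl1*, a neuronal ubiquitin hydrolase, at -0.32 ± 0.20 and *Sod1* at -0.23 ± 0.20. The adjusted p from limma was at least 0.518 for the brain clones of every gene named from these lists.

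Markers of cell types were set beside the members. In brain, all 8 measured genes of neurons lay below 0 (median -0.31), with medians over the list of -0.12 (W), -0.36 (X), -0.20 (Y) and -0.36 (Z). Of all clones, 52.2% lay below 0 in brain. limma called 0 of the 12 neuron clones. At an unadjusted p under 0.05, 1 was lower and 0 higher (4.04% and 5.3% of all clones). *Uchl1* is counted here and among the other neurodegeneration genes. Of 7 astrocyte genes, 6 lay below 0 (median -0.19). In heart 3 of 7 neuron genes and 3 of 6 astrocyte genes lay below 0. Oligodendrocyte genes were divided (3 of 6, median 0.01), as were cardiomyocyte genes (2 of 5, median 0.01). Of the choroid plexus, the site of *Ttr*, 4 genes were measured, 3 of them above 0, with list medians of 0.01 (W), 0.11 (X), 0.85 (Y) and -0.06 (Z). Microglia had 5 of 7 below 0 (median -0.11), endothelium 5 of 6 (median -0.12), skeletal muscle fibres 4 of 4 (median -0.09), adipocytes 1 of 2 and liver plasma proteins 2 of 2. Of the 3 red cell genes, 2 lay below 0 in brain (median -0.06), 3 in heart (median -0.50) and 1 in muscle (median 0.08). The list medians in brain were -0.57 (W), -0.37 (X), -0.50 (Y) and 0.18 (Z). One of these genes, *Hba-a1* (mean of 6 clones), lay below 0 in brain, with -0.57 (W), -1.04 (X), -0.79 (Y) and -1.61 (Z), and in heart, with -0.85 (W), -0.24 (X), -0.53 (Y) and -0.63 (Z). Of the 2 red cell genes with values of all 4 brains it was the 1 of a single sign, so that sign is not a finding about it. Among all single clones, 15.7% lay below 0 in every brain and 7.55% in every heart. The lowest adjusted p from limma over its clones was 0.518 in brain and 0.802 in heart. The part of these cell types in the values of the members was not tested.

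**Figure D4:**
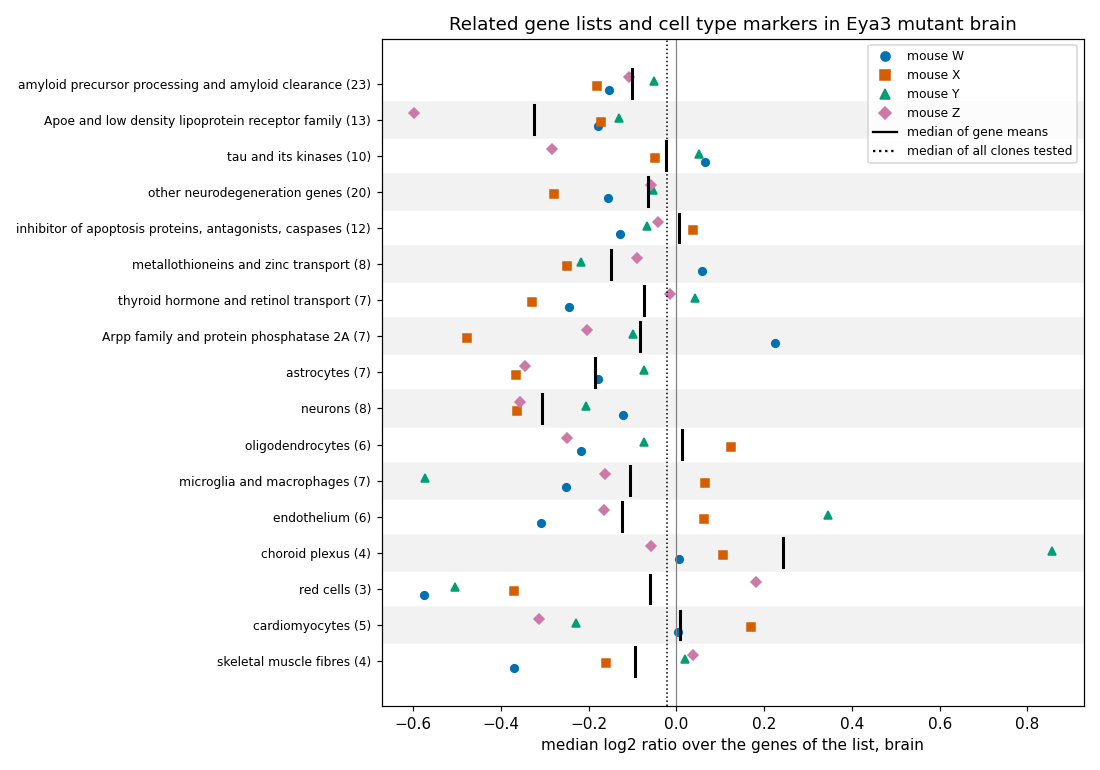
Median log2 ratio in brain (horizontal axis) of each list of related genes or cell type markers with at least 3 measured genes (number of genes in brackets), per mouse (symbols) and for the gene means (black bars); the dotted line is the median of all clones tested, -0.02. The bars of the lipid carrier and receptor list (-0.33) and of the neuron markers (-0.31) lie farthest below 0, and that of the choroid plexus (0.24) farthest above.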

How the data were processed

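The 24 two-colour cDNA arrays were grouped by organ (brain, heart, muscle) and by mouse (4 *Eya3*-/- males) from the sample labels. The authors scanned the slides and normalized them with MIDAS (the sources used here do not give the method within it), and deposited log2 ratios per clone, with missing spots empty. The deposited values were taken as they are. Values larger than 10 in size are positive where mutant RNA carried Cy5 and negative where it carried Cy3, and haemoglobin clones have 1 sign on both arrays of a mouse, so dye swaps were taken as already turned. Which animals were pooled is uncertain, because the labelled range of pool animals covers the numbers of mice W and X. Per-sample columns left unused numbered 0.

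Both arrays of a mouse were averaged. A clone was tested with at least 3 mice, by limma 3.58.1 (lmFit, eBayes, Benjamini-Hochberg over all clones of the organ) in R 4.3.3 against 0 and between organs, at an adjusted p under 0.10. SAM, which the methods name, was rewritten in R with 16 sign flips of mouse means and 100 of arrays, at 10% false positives. The study selected genes by a cutoff on SAM's relative difference and used more permutations, so these calls are not those of its own SAM. An exact sign-flip test cannot go below p = 0.125 with 4 mice. Organs are paired by mouse, and the correlation across clones of a mouse's deviations between organs was -0.008 to 0.058. Alternatives covered dye orientation, scaling, missing and extreme values, the replicate unit, averaging of clones, thresholds, SAM, the mouse as a block and leaving out each mouse. Named were all member clones and the 2 clones of another symbol nearest to each member clone with 12 values. Up to 4 genes per related list were named, with the largest brain ratio among those of 1 sign in all mice. From the cell type markers *Hba-a1* was named. Clones of a symbol were averaged for lists. Members and lists were chosen with earlier results of these data known. The programs were tested on simulated data. Symbols came from the platform annotation, updated through gene identifiers, and promoters from RefSeq. Figures used matplotlib 3.10.9 in Python 3.11.15.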

Additional observations from a re-analysis of the deposited data

Results flagged for a closer look

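*Apoe* clone 11582 was singled out because every mouse lay below 0 in brain and above 0 in heart. The mean log2 ratio was -0.34 in brain, with mice from -0.42 to -0.24, and 0.62 in heart, with mice from 0.40 to 0.83. Such a reversal was found in 3.19% of all clones with values of 4 mice in both organs. The difference itself, -0.97 (95% interval -1.39 to -0.54), did not pass limma (adjusted p = 0.394). With the arrays carrying the mutant in Cy5 alone brain and heart had -0.51 and 0.56, and with the mutant in Cy3 alone -0.17 and 0.68. With the Cy3 arrays turned, brain had -0.17 and heart -0.06, both below 0, and the difference was -0.11 (adjusted p = 0.957 from limma). If the swaps are already turned, as taken here, this setting cancels what the orientations share and keeps only the gap between them. Its small difference therefore cannot decide whether the reversal holds. No mouse of any member clone stood apart from the other mice of its organ by Dixon's criterion in 29 groups of 4 mice, of which chance flags about 1 in 20.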

How the results depend on the processing

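No alternative called a member clone. The count was 0 in every organ and for both differences between organs under every setting run, including the mouse as a replicate block (0 for brain minus heart and 0 for brain minus muscle), and without any 1 mouse. Over all clones, limma with the 8 brain arrays and the mouse as a random block called 9 and SAM on the 8 brain arrays 26, with 0 members among them. The median of the member clones in brain lay between -0.44 and -0.38 without each mouse in turn and was 0.033 with the arrays carrying the mutant in Cy3 turned. In muscle the median was -0.22 with those arrays turned, -0.15 with arrays of the mutant in Cy5 alone and 0.24 with the mutant in Cy3 alone. The sign of single clones turned under several settings, and the turns given here are those of means or differences larger than the SD between mice. With the Cy3 arrays turned, the log2 ratios or differences were *Lrp1* clone 17544 in brain 0.60, *Arpp19* clone 15290 in brain 0.033, *Ttr* clone 51 in brain 0.41, *Apoe* clone 11582 in heart -0.060, *Aplp1* clone 16327 in heart -0.0055, *Arpp19* clone 15290 in heart -0.013, *Ttr* clone 2267 in heart 0.59, *Lrp1* clone 20342 brain minus heart 0.094, *Arpp19* clone 15290 brain minus heart 0.046, *Mt3* clone 17217 brain minus heart 0.0040, *Ttr* clone 51 brain minus heart 0.71, *Arpp19* clone 15290 brain minus muscle 0.25, *Mt3* clone 17217 brain minus muscle 0.31 and *Ttr* clone 2267 brain minus muscle 0.87. With a mouse counted from 1 array they were *Atxn10* clone 6945 in brain -0.50, *Ttr* clone 2267 in heart 0.066, *Atxn10* clone 6945 brain minus heart -0.16 and *Atxn10* clone 6945 brain minus muscle -0.23. With the mutant in Cy5 alone they were *Lrp1* clone 17544 in brain 0.34, *Ttr* clone 2267 in heart 0.22, *Mt3* clone 17217 brain minus muscle 0.087 and *Ttr* clone 2267 brain minus muscle 0.038. With the mutant in Cy3 alone they were *Xiap* clone 20476 in brain 0.041, *Atxn10* clone 6945 in brain -1.16, *Atxn10* clone 6945 brain minus heart -0.21 and *Atxn10* clone 6945 brain minus muscle -0.91. The mean of *Atxn10* clone 6945 in brain was -0.093 with the 8 arrays as samples and -0.023 with the mouse as a random block. The main mean of this clone in brain leaves out mouse Y, which had 1 array value (-3.38). That value enters with the mutant in Cy3 alone, with a mouse counted from 1 array, and in both fits on the 8 arrays. Those settings therefore differ from the main mean in the mice as well. With the swaps taken as already turned, turning the Cy3 arrays cancels what the orientations share and leaves only the gap between them. Clones whose orientations agree, such as *Arpp19* in brain, are moved towards 0 by that setting. Its turns, and its medians over the members, are therefore no measure of how stable a clone is. The cause of the turns under the other settings was not tested. *Apoe*, *Cdk5r1*, *Mt3* clone 17217, *Ttr* clone 2267 and *Atxn10* clone 19986 stayed below 0 and *Aplp1* clone 7394 above 0 in brain under each of 15 settings, but their size varied. These clones had values on all 8 brain arrays and none beyond 10. Several settings, such as those on missing or extreme values and on the replicate unit, could therefore not move their means. The number of settings is thus no measure of stability. The mean nearest to 0 was -0.019 for *Mt3* clone 17217 with the Cy3 arrays turned and -0.0022 for *Ttr* clone 2267 without mouse Z, and it was -0.17 for *Apoe*, -0.25 for *Cdk5r1*, -0.16 for *Atxn10* clone 19986 and 0.23 for *Aplp1* clone 7394. The sources used here do not give signal over background, and precision rests on the number of arrays and the spread between mice.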
